A study of Homo sapiens with 6 samples.

Results

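The clustered histone genes were taken as the protein-coding genes whose names begin with HIST1H, HIST2H, HIST3H or HIST4H, which gave 71 of the 58735 genes in the deposited table. By histone type they comprised 6 H1, 17 H2A, 18 H2B, 15 H3 and 15 H4 genes. Histones are the small basic proteins around which DNA is wound: H2A, H2B, H3 and H4 form the core of the nucleosome, and H1 binds the linker DNA. Clustered histone genes are read mainly in S phase, when new DNA is packed, and their usual mRNA carries no poly(A) tail but ends just after a short stem-loop bound by SLBP. Some of the same genes can also give longer, polyadenylated transcripts, which are known from differentiated or non-dividing cells.

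RNA was sequenced from T84, a human colorectal cancer cell line, in 3 shACSL4 and 3 shControl libraries. In the shACSL4 cells a short hairpin RNA targeted ACSL4, the enzyme that joins coenzyme A to arachidonic and other polyunsaturated fatty acids, and the sample records call them knockdown. The shControl cells are recorded as wild type with a control hairpin. Both groups were grown in DMEM/F12 with serum, and ribosomal RNA was removed from total RNA before library construction. The labels give neither the hairpin sequences, the time after transduction nor the number of clones. Whether the 3 libraries of a group stem from different cultures is not recorded, and p-values therefore measure the spread between these libraries, which may be technical.

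The libraries held 14740383 to 17620630 counted reads. ACSL4 had 160, 160 and 175 counts in the shACSL4 libraries, against 1269, 1150 and 1070 in the shControl libraries (log2 fold change −2.85 ± 0.10 SE, adjusted p = 3.57e-12 by edgeR's quasi-likelihood test, n = 3 each). Of 11 colonic epithelium markers, all 11 passed the filter on low counts, 7 were higher and 1 was lower, and their summed level was 8311 to 9726 CPM (read counts scaled to library size) in shACSL4 and 6981 to 8327 CPM in shControl libraries. Among all 15694 genes tested, 24.0% were higher and 23.1% were lower. Of 11 markers of other cells, 3 passed the filter and 2 of these, LYZ and COL1A1, were lower. CD3E, a T cell gene, was at 0, VIM had at most 2 counts in a library, and the summed level was 5.87 to 9.99 CPM in shACSL4 and 19.9 to 31.6 CPM in shControl libraries, most of it LYZ, a lysozyme gene. The part of these levels in the histone results was not tested. In bulk RNA, fewer cells in S phase and less histone mRNA per cell cannot be told apart.

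Most clustered histone genes gave few reads or none. Only 19 of the 71 genes passed edgeR's filter on low counts and were tested. Of the other 52, 14 had no read in any of the 6 libraries, which at 3 counts a library leaves room for up to 0.171 to 0.202 CPM, and 38 had between 1 and 47 reads over all 6 libraries. Counts of some untested members are uncertain because their sequence recurs in other histone genes. This held for 100% of the 100-base stretches of HIST2H3A, HIST2H3C and HIST2H2AA3, and for 97.1% of those of HIST2H4B. Most untested members, HIST1H4C among them, shared no such stretch. Of the 14 with no read, only HIST2H3PS2 shared any, at 24.7%. HIST1H4C, an H4 gene, had 0, 5 and 1 counts in shACSL4 libraries, against 2, 2 and 2 in shControl libraries. MCM7, a subunit of the helicase that opens DNA in S phase, had 8573, 8602 and 7539 counts in shACSL4 and 8398, 8565 and 6390 in shControl libraries. Per length, HIST1H4C averaged 0.263 FPKM (fragments scaled to transcript length and sequencing depth) in shACSL4 and 0.289 FPKM in shControl cells, while MCM7 averaged 113 and 111 FPKM in shACSL4 and shControl cells. HIST1H4C and MCM7 were set side by side after their values were seen.

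Several other RNAs that lack a poly(A) tail also had few counted reads or none. Of 12 table rows on a list of such RNAs, 2 passed the filter, with 1 higher and 1 lower, and 8 were at 0. RN7SK, RN7SL1, RMRP, RPPH1, RNU11, RNU12 and RNU6ATAC were listed at 0 in all 6 libraries. MALAT1, a nuclear RNA whose end is a triple helix, had 5755, 6813 and 4659 counts in shACSL4 and 8192, 11838 and 8193 counts in shControl libraries, and it fell (log2 fold change −0.76 ± 0.14 SE, adjusted p = 0.000226, edgeR). RN7SL2, the RNA of the signal recognition particle, had 4437, 3906 and 4676 counts in shACSL4 and 3095, 3859 and 3221 counts in shControl libraries. It rose (0.32 ± 0.12 on the log2 scale, adjusted p = 0.0308, edgeR), but it is nearly identical in sequence to RN7SL1, so the division of reads between these genes is uncertain. The part of RNA selection and of counting in these levels was not tested.

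Reads went mainly to histone genes with long annotated transcripts. Of the 28 members whose exons sum to more than 700 bases, 17 passed the filter, and none was at 0 in all libraries. Of the 43 members of up to 700 bases, HIST1H2BK and HIST1H1C passed, and 14 were at 0. The long genes held 67.0% of all reads on the 71 members, with a median mean count of 16.2, against 1.0 for the short ones. Counts also grow with transcript length itself, and the reads were not set against the summed exon length of each class. HIST1H2BK counts as short by its annotated 381 bases, while its RefSeq record reaches from 27138293 to 27146858. HIST1H2BK alone held 21.7% of the reads on members, and the 10 highest genes held 76.2%.

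**Figure D1:**
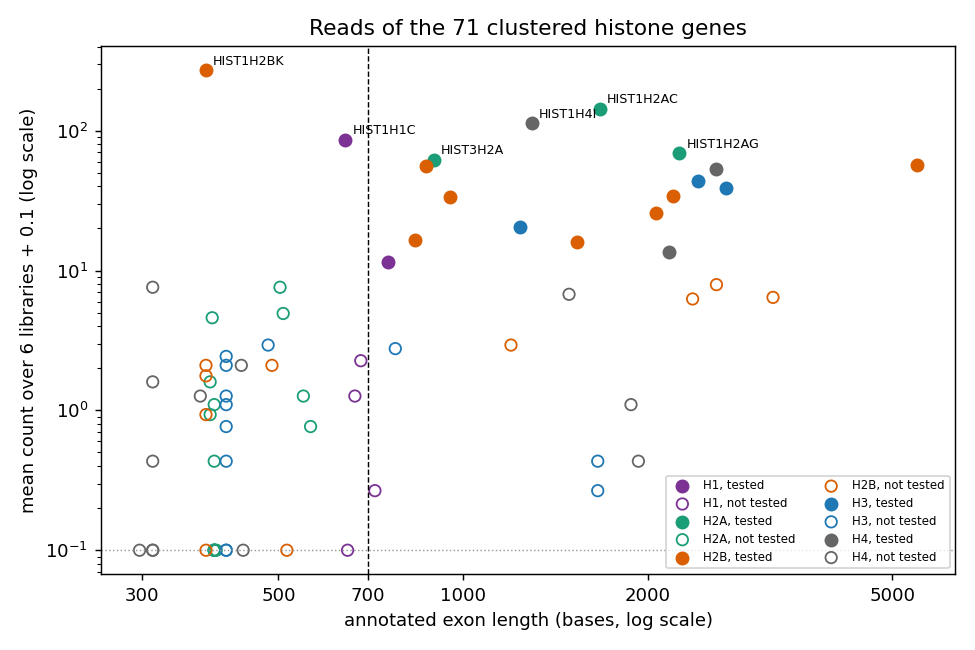
Mean count over the 6 libraries plus 0.1 (vertical, log scale) against annotated exon length in bases (horizontal, log scale) for the 71 clustered histone genes, coloured by type. Filled points are the 19 genes that were tested, the dashed line stands at 700 bases, and the points on the dotted line are the 14 genes with no read.

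The annotation shows how these transcripts end. A stem-loop with 6 paired bases and a 4-base loop lay in an annotated transcript of 31 of the 71 members (GENCODE 29), while 35 members were annotated as coding sequence only, so their 3′ ends could not be read. The loop was TTTC in 23 members, TTTA in 5 and TTTT in 3. The windows of 5 members are shown because they include genes that were lower, higher and not called; capitals mark the loop, each arm of the stem is the 6 bases beside it, and every window is in the transcript's sense.

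HIST1H4I: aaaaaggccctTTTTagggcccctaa
HIST1H2BC: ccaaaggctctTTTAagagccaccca
HIST1H2BN: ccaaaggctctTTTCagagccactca
HIST1H4H: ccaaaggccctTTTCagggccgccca
HIST1H2AG: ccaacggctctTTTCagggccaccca

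In HIST1H2AG the annotated transcript ran 1761 bases past the stem-loop, in HIST1H4I 212 bases, in the longest stem-loop transcript of HIST1H4H 1655 bases, and in that of HIST1H2BC 116 bases. Of the tested genes, 14 had such a stem-loop in a transcript. Gene counts do not say on which side of the stem-loop the reads lay.

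Among the 19 tested genes, 6 were lower and 1 was higher in shACSL4 cells at an adjusted p under 0.05, and 12 were not called. The 7 calls are 36.8% of the tested members, below the 47.2% called among all 15694 genes tested. The 6 lower calls are 31.6% of the tested members, beside 23.1% lower and 24.0% higher among all tested genes. Without TMM scaling the calls over all genes were 2561 lower and 4878 higher, against 3631 lower and 3769 higher with it, and the members' counts were 6 and 1 both ways. In 7 of the 19 genes every shACSL4 library lay below every shControl library, and in 1 every shACSL4 library lay above, beside 26.8% and 28.3% of all tested genes. The median log2 fold change was −0.49 over the 19 tested members and 0.01 over all tested genes.

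Summed by type, H2B had the largest difference. Its 18 genes summed to 20.8 ± 2.68 CPM in shACSL4 and 46.9 ± 4.03 CPM in shControl libraries (SD, n = 3 each), a log2 ratio of −1.17. H4 summed to 9.11 ± 1.26 CPM in shACSL4 and 15.9 ± 2.15 CPM in shControl libraries (−0.81), and H1 to 4.85 ± 0.74 and 7.84 ± 1.52 CPM in shACSL4 and shControl libraries (−0.69). H2A summed to 17.6 ± 1.55 CPM in shACSL4 and 19.5 ± 3.10 CPM in shControl libraries (−0.15), and H3 to 6.89 ± 0.51 and 7.62 ± 0.47 CPM in shACSL4 and shControl libraries (−0.15). For H2B, H4 and H1 the 2 groups of libraries did not overlap, while for H2A and H3 they did. These sums have no test, and each rests on a few genes. The H2B difference lay mainly in HIST1H2BK, at 8.45 CPM in shACSL4 and 25.8 CPM in shControl libraries. How the types rank without this gene was not computed. The H4 difference lay mainly in HIST1H4I, at 3.64 CPM in shACSL4 and 10.6 CPM in shControl libraries. HIST4H4 averaged 3.22 and 3.39 CPM in shACSL4 and shControl libraries, and HIST1H4H 1.12 and 0.544 CPM. The H1 difference lay in HIST1H1C, at 3.63 and 7.23 CPM in shACSL4 and shControl libraries. HIST1H1E went the other way, at 0.963 and 0.419 CPM.

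**Figure D2:**
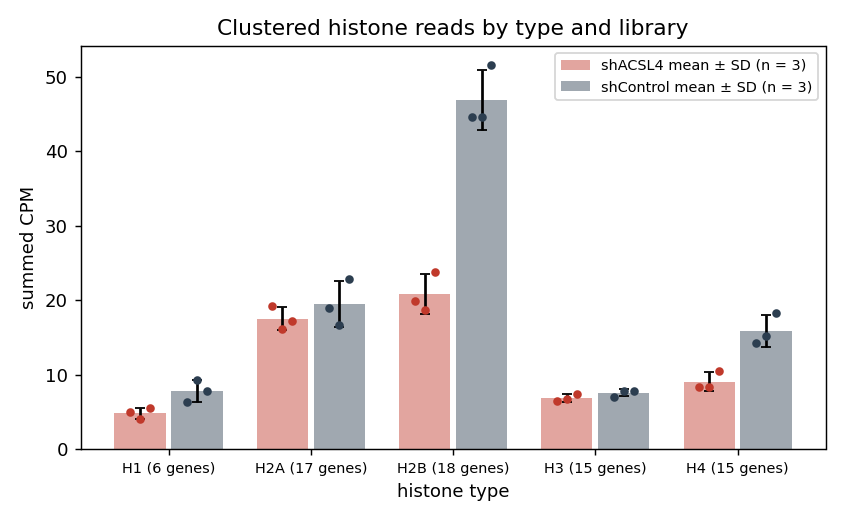
Summed CPM of the clustered histone genes by type. Bars are group means with SD (n = 3), dots single libraries, shACSL4 in red to the left of shControl in grey; the H2B sums are 18.8 to 23.8 CPM in shACSL4 and 44.6 to 51.6 CPM in shControl libraries.

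H2B genes, which code for the partner of H2A in the nucleosome core, made up 4 of the 6 lower calls. They also made up 8 of the 19 tested members, and 23.1% of all genes tested were lower. HIST1H2BK (ENSG00000197903, chr6:27146418-27146798, minus strand) had 132, 123 and 156 counts in shACSL4 libraries and 399, 401 and 422 in shControl libraries. It was 3.05-fold lower (log2 fold change −1.61 ± 0.14 SE, adjusted p = 1.01e-07, edgeR), and all shACSL4 libraries lay below all shControl libraries. HIST1H2BJ (ENSG00000124635, chr6:27125897-27132750, minus strand) had 7, 12 and 16 counts in shACSL4 and 50, 52 and 63 in shControl libraries. Its fold change was the largest among the tested members, 4.83-fold lower (−2.27 ± 0.34, adjusted p = 4.11e-05, edgeR), at counts where each shACSL4 library rests on 16 reads or fewer. HIST1H2BN (chr6:27837760-27865798) had 29, 36 and 35 counts in shACSL4 and 93, 68 and 80 in shControl libraries (−1.31 ± 0.23, adjusted p = 0.000213, edgeR). Its annotated span takes in HIST1H2AK on the other strand, which had 0 reads, and HIST1H2AL on its own strand, which had 6 reads over all libraries. HIST1H2BC (chr6:26114873-26123926) had 3, 12 and 12 counts in shACSL4 and 21, 26 and 24 in shControl libraries (−1.43 ± 0.44, adjusted p = 0.0131, edgeR). The groups did not overlap, but the HIST1H2BC call was lost without shACSL4 replicate 1 (−1.05, adjusted p = 0.0760).

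The other 4 tested H2B genes were not called. HIST2H2BE lay at 1.54, 1.82 and 1.71 CPM in shACSL4 and 2.50, 2.01 and 3.23 CPM in shControl libraries, with no overlap (−0.60 ± 0.29, adjusted p = 0.101, edgeR). HIST1H2BD had 38, 48 and 56 counts in shACSL4 and 83, 62 and 50 in shControl libraries (−0.49 ± 0.24, adjusted p = 0.111, edgeR), and its groups overlapped. HIST1H2BH and HIST1H2BG had log2 fold changes of −0.44 ± 0.33 and 0.37 ± 0.41.

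Most H2A reads came from 3 genes, and none of them was called. HIST1H2AC (chr6:26124145-26139116) had 146, 136 and 149 counts in shACSL4 and 127, 127 and 177 in shControl libraries (−0.04 ± 0.18, adjusted p = 0.857, edgeR). HIST3H2A, on chromosome 1, had 62, 58 and 63 counts in shACSL4 and 73, 60 and 57 in shControl libraries (−0.09 ± 0.21, adjusted p = 0.761, edgeR). HIST1H2AG (chr6:27133042-27135291) had 62, 76 and 47 counts in shACSL4 and 87, 56 and 85 in shControl libraries (−0.35 ± 0.23, adjusted p = 0.236, edgeR). In all 3 the groups overlapped. The next, HIST1H2AI, had 3 to 12 counts in shACSL4 and 5 to 14 in shControl libraries and was not tested.

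H4 genes code for the partner of H3, and of their 3 tested members 1 was lower, 1 was higher and 1 was not called. HIST1H4I (ENSG00000276180, chr6:27138588-27139881, plus strand) had 57, 54 and 66 counts in shACSL4 and 163, 168 and 171 in shControl libraries. It was 2.91-fold lower (−1.54 ± 0.18, adjusted p = 2.48e-06, edgeR), with no overlap. HIST1H4H (chr6:26277609-26285638) had 17, 20 and 18 counts in shACSL4 and 10, 9 and 7 in shControl libraries, the only call in the other direction (1.03 ± 0.40, adjusted p = 0.0429, edgeR). The HIST1H4H call was lost with DESeq2 (adjusted p = 0.107) and without any 1 of the 6 libraries (adjusted p = 0.0833 to 0.126). HIST4H4, on chromosome 12, had 50, 48 and 59 counts in shACSL4 and 51, 42 and 67 in shControl libraries (−0.07 ± 0.26, adjusted p = 0.843, edgeR). HIST1H4K had 1, 5 and 10 counts in shACSL4 and 5, 10 and 14 in shControl libraries, and all of its 100-base stretches recur in other histone genes, so its count is uncertain.

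Of the linker histone genes, HIST1H1C (ENSG00000187837, chr6:26055787-26056428, minus strand) had 59, 45 and 72 counts in shACSL4 and 101, 132 and 110 in shControl libraries. It was 1.99-fold lower (−0.996 ± 0.220, adjusted p = 0.00137, edgeR), with no overlap. HIST1H1E had 11, 25 and 12 counts in shACSL4 and 4, 13 and 3 in shControl libraries (1.20 ± 0.54, adjusted p = 0.0782, edgeR). Its groups overlapped through shControl replicate 2, without which it was called (2.10, adjusted p = 0.0138, edgeR). This was the only call of HIST1H1E in 13 alternatives. Without shACSL4 replicate 2 its log2 fold change was 0.79 (adjusted p = 0.347, edgeR), and without shControl replicate 3 it was 0.87 (adjusted p = 0.255, edgeR). HIST1H1B and HIST1H1D had at most 5 counts in any library.

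No H3 gene was called. HIST1H3G had 35, 33 and 42 counts in shACSL4 and 43, 57 and 52 in shControl libraries (−0.51 ± 0.26, adjusted p = 0.124, edgeR). HIST1H3E had 30, 49 and 55 counts in shACSL4 and 37, 31 and 32 in shControl libraries (0.38 ± 0.28, adjusted p = 0.287, edgeR). HIST1H3H had 21, 19 and 9 counts in shACSL4 and 18, 30 and 25 in shControl libraries (−0.62 ± 0.39, adjusted p = 0.208, edgeR). In CPM the groups overlapped in all 3 genes. HIST3H3 had 2 to 5 counts in shACSL4 and 1 to 3 in shControl libraries and was not tested.

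**Figure D3:**
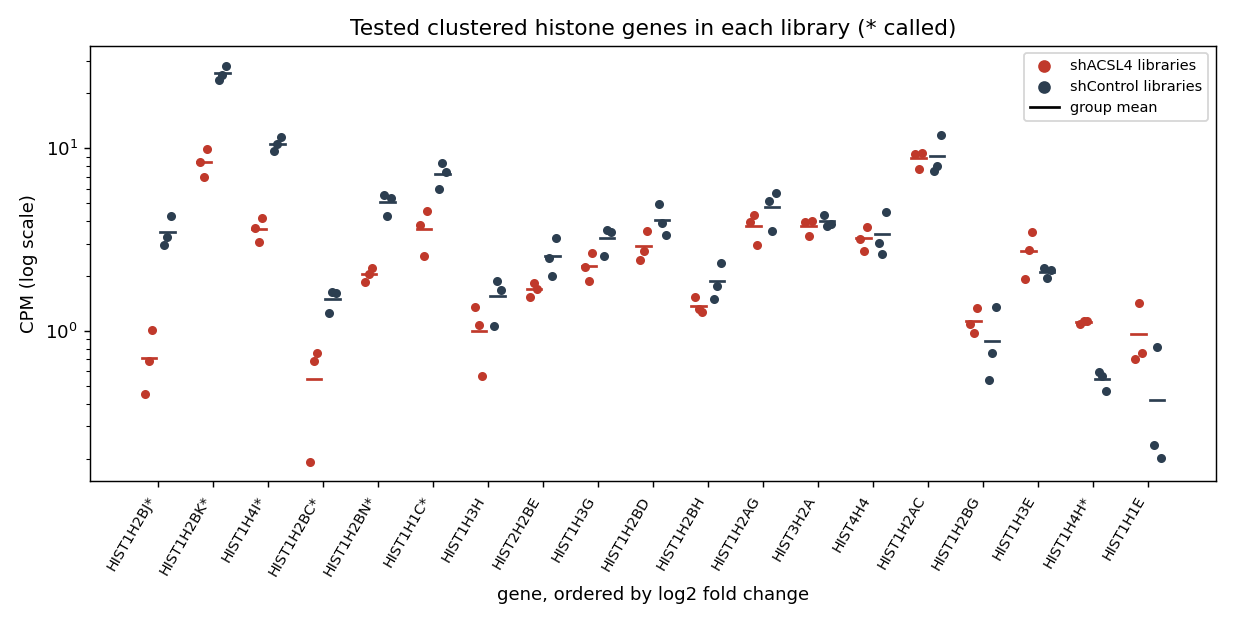
CPM (log scale) of the 19 tested genes in each library, shACSL4 in red to the left of shControl in dark grey, with the group mean as a line; genes run from the most negative to the most positive log2 fold change and an asterisk marks a call. In the 6 genes called lower the groups do not overlap.

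The 55 genes of the large cluster on chromosome 6 lay in 3 blocks separated by gaps of over 300 kb. The short middle block, 21.6 kb from HIST1H2BJ to HIST1H2AH, held 5 members, of which 4 were tested and 3 were lower (HIST1H2BJ, HIST1H4I and HIST1H2BK), with a median log2 fold change of −1.58. The first block held 34 members, 10 of them tested, with 2 lower, 1 higher and a median of −0.24. The last block held 16 members, of which HIST1H2BN was lower and HIST1H3H was not called. Of the 20 other protein-coding genes inside the chromosome 6 cluster, 15 were tested, of which 6 were lower and 2 were higher, with a median of −0.20. Among all genes tested, 23.1% were lower and 24.0% were higher. No test was made between blocks.

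**Figure D4:**
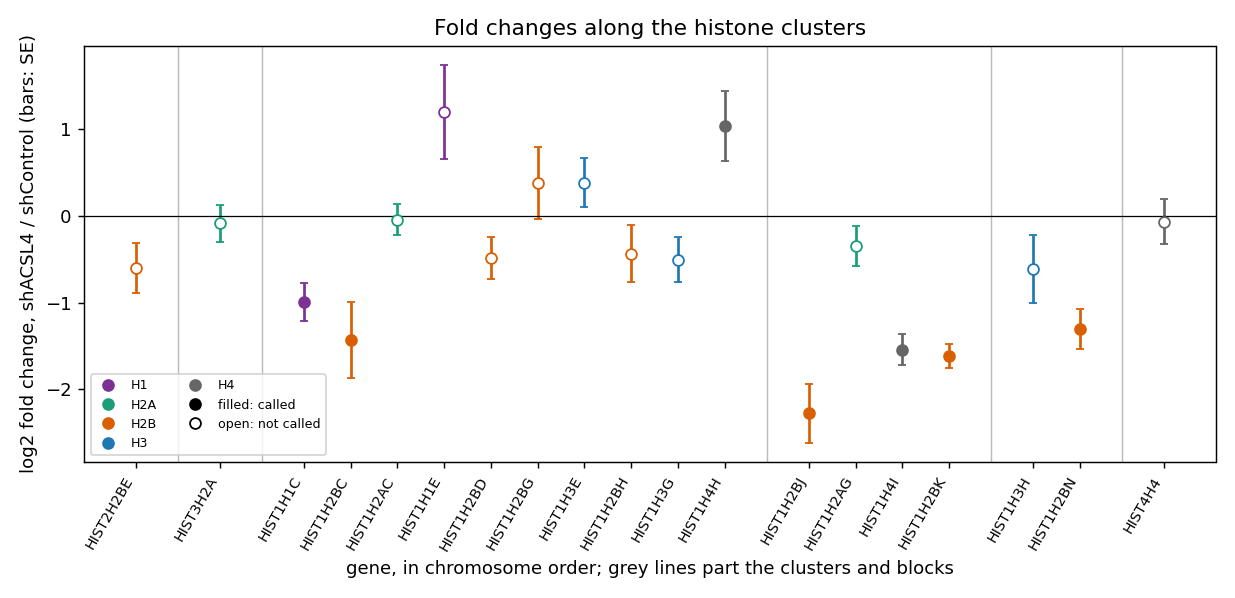
Log2 fold change (shACSL4 over shControl, bars SE) of the 19 tested genes in chromosome order, coloured by type; filled points are called. Grey lines part the clusters on chromosomes 1, 6 and 12 and the 3 blocks on chromosome 6, of which the middle one has 3 of its 4 points below −1.5.

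Reads of neighbours in the middle block may be shared. The RefSeq record of HIST1H2BK, under its newer name H2BC12, runs from 27138293 to 27146858 on the minus strand of chromosome 6 (GRCh38.p14) and so spans HIST1H4I on the plus strand. No source used here gives the strand setting of the counting, so reads of HIST1H4I and of a long HIST1H2BK transcript cannot be told apart. The lincRNA AL021807.1, beside HIST1H2BJ and chosen after its values were seen, had 1, 3 and 4 counts in shACSL4 and 20, 7 and 13 in shControl libraries and did not pass the filter.

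Many H2A and H2B genes stand head to head and share their upstream DNA. By the outer gene bounds of the deposited annotation, members formed 12 pairs that started within 1000 bases of each other on opposite strands. Of these, 11 were an H2A with an H2B gene, and in 2 pairs both genes were tested. HIST1H2BO was paired with both HIST1H3J and HIST1H2AM. These bounds miss HIST1H2BN with HIST1H2AK, whose RefSeq starts lie at 27838569 and 27838375. HIST1H2BJ and HIST1H2AG start 292 bases apart. The log2 ratio of HIST1H2BJ to HIST1H2AG counts (0.5 added to each) was −3.06, −2.61 and −1.53 in shACSL4 and −0.79, −0.11 and −0.43 in shControl libraries, a difference of −1.96. HIST1H2BC and HIST1H2AC start 219 bases apart, and their log2 ratio was −5.39, −3.45 and −3.58 in shACSL4 and −2.57, −2.27 and −2.86 in shControl libraries, a difference of −1.57, which was −0.95 without shACSL4 replicate 1, where HIST1H2BC had 3 counts. In both pairs every shACSL4 ratio lay below every shControl ratio. The two-sided exact permutation p was 0.1 for each pair and 0.1 after Benjamini-Hochberg adjustment over the 2, the smallest that 3 against 3 libraries can give. This comparison was chosen after the single genes' values were seen. Each pair's H2B gene was already called lower and its H2A gene was not called, so the ratios add no separate support.

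Promoters are shown for 4 genes that were lower: the H2B genes HIST1H2BJ, HIST1H2BK and HIST1H2BC, the first of which shares nearly its whole window with HIST1H2AG, and HIST1H4I. Each is the 250 bases before the RefSeq start (GRCh38.p14), 5′ to 3′ on the gene's strand. Capitals mark ATTTGCAT, the octamer bound by POU factors, CCAAT, the box bound by NF-Y, and TATAAA, on either strand, where overlapping matches run together.

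HIST1H2BJ, chr6:27132796-27133045, minus strand: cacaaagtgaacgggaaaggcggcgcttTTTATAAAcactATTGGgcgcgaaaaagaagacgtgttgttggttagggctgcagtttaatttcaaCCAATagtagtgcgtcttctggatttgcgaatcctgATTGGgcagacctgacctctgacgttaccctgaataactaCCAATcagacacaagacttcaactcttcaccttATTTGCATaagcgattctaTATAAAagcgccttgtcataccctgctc
HIST1H2BK, chr6:27146859-27147108, minus strand: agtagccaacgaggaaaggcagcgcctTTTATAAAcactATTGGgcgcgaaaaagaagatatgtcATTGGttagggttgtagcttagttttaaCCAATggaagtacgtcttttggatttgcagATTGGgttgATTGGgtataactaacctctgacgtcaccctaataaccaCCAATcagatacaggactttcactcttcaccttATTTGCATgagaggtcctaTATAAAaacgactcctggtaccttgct
HIST1H2BC, chr6:26123927-26124176, minus strand: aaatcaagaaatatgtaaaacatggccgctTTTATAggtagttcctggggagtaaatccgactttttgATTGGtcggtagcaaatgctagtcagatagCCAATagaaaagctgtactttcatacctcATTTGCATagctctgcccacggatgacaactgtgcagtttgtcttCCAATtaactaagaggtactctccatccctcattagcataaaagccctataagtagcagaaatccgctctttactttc
HIST1H4I, chr6:27139032-27139281, plus strand: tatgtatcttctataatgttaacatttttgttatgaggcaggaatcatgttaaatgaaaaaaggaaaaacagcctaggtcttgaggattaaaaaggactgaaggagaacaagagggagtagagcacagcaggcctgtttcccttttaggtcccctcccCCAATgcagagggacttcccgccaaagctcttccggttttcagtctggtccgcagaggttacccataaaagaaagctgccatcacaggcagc

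The octamer began 47 bases before the start in HIST1H2BJ, 46 in HIST1H2BK and 123 in HIST1H2BC, and HIST1H4I had none. For HIST1H4I the window lies inside the gene as the deposited table draws it, since the table's start is further upstream. RefSeq windows were matched for 66 of the 71 members. The octamer was in 14 of 18 H2B and 11 of 16 H2A windows, in 1 of 13 H3 windows and in none of the 6 H1 and 13 H4 windows, beside 1.63% of all 35116 promoter windows. CCAAT was in every matched H1, H2A, H2B and H3 window and in 3 of 13 H4 windows, beside 32.0% of all windows, and TATAAA was in 45 of the 66 matched windows, beside 10.7% of all. The octamer was in the windows of HIST1H2BK, HIST1H2BJ and HIST1H2BC, which were lower, and equally in those of HIST1H2AC, HIST1H2AG, HIST1H2BG, HIST1H2BH and HIST2H2BE, which were not called. HIST1H2BN, which was lower, had no octamer in its window.

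Replacement histones are coded outside the clusters, are made largely independently of S phase and mostly carry poly(A) tails. Per length, HIST1H2BK, the clustered gene with the highest FPKM, averaged 21.8 ± 3.65 FPKM in shACSL4 and 67.2 ± 5.73 FPKM in shControl cells (SD, n = 3 each). H2AFX, the variant phosphorylated at DNA breaks, averaged 110 FPKM in shACSL4 and 158 FPKM in shControl cells, the highest replacement gene in shControl. Replacement genes varied widely: in shControl cells H1FX averaged 102 FPKM, above HIST1H2BK, while H3F3A was close to it at 68.4 FPKM. H2AFJ at 45.5, CENPA at 18.3 and H2AFY2 at 6.05 FPKM lay below it. Of 12 replacement genes 11 were tested, of which 1 was higher and 4 were lower. Among all genes tested, 24.0% were higher and 23.1% were lower. H1F0, the linker histone that accumulates in non-dividing cells, rose to 704 ± 60.4 CPM in shACSL4, against 341 ± 8.13 CPM in shControl cells (log2 fold change 1.05 ± 0.09 SE, adjusted p = 1.25e-07, edgeR). CENPA, the H3 variant of centromeres, fell (−0.85 ± 0.10), as did H2AFJ (−0.56 ± 0.09), H2AFX (−0.50 ± 0.09) and H3F3B (−0.26 ± 0.09, adjusted p = 0.0304, edgeR).

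**Figure D5:**
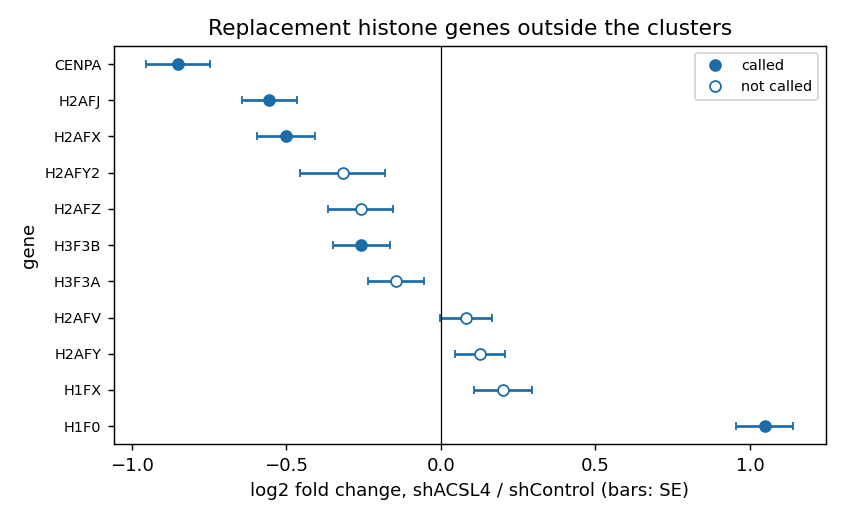
Log2 fold change (shACSL4 over shControl, bars SE) of the 11 tested replacement histone genes; filled points are called. H1F0 stands alone above 1, and CENPA, H2AFJ, H2AFX and H3F3B are called below 0.

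Genes for the 3′ end processing and decay of histone mRNA had calls in both directions. Of 13 genes listed for 3′ end processing, among them NPAT, which is also in the transcription list below, 5 were lower and 5 were higher. Among all genes tested, 23.1% were lower and 24.0% were higher. SLBP, the stem-loop binding protein, fell to 79.95 ± 6.14 CPM in shACSL4, against 99.6 ± 6.88 CPM in shControl cells (−0.32 ± 0.09, adjusted p = 0.0078, edgeR). NCBP2 of the cap-binding complex fell (−0.73 ± 0.08), as did CSTF2 of the cleavage stimulation factor (−0.59 ± 0.08). ZNF473, a protein of the U7 particle that directs the cut, rose (0.76 ± 0.13), as did NCBP1 (0.55 ± 0.09) and CPSF3, the endonuclease (0.56 ± 0.09). Of 11 genes for histone mRNA decay, 3 were lower and 3 were higher. The uridylyltransferase TUT4 (−0.41 ± 0.10), the exonuclease ERI1 (−0.28 ± 0.10) and the helicase UPF1 (−0.24 ± 0.09) fell, while the exonuclease DIS3L2 (0.50 ± 0.11) and the kinase SMG1 (0.40 ± 0.14) rose.

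Of 12 genes for histone gene transcription, 4 were lower and none was higher, beside 23.1% lower and 24.0% higher among all genes tested. CDK2, the kinase that with cyclin E activates NPAT, fell (−0.67 ± 0.09), as did CDC25A, the phosphatase that activates CDK2 (−0.83 ± 0.09), POU2F1, which binds the octamer (−0.63 ± 0.10), and CCNE1, cyclin E (−0.34 ± 0.13, adjusted p = 0.0432, edgeR). NPAT, the coactivator of clustered histone genes, averaged 48.8 ± 5.71 CPM in shACSL4 and 43.0 ± 4.84 CPM in shControl cells (0.19 ± 0.11, adjusted p = 0.166, edgeR). Of 28 S phase genes, some of them also in the transcription list, 8 were lower and 4 were higher, with a median log2 fold change of −0.08. UHRF1 (0.62 ± 0.09) rose, and CDK2, GINS1 (−0.67 ± 0.10) and CDC6 (−0.34 ± 0.09) fell.

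Of 21 tested histone chaperone genes, 5 were lower and 4 were higher, beside 23.1% lower and 24.0% higher among all genes tested. HJURP, the chaperone of CENPA, fell (−0.74 ± 0.08), as did RBBP4 (−0.52 ± 0.08), NAP1L1 (−0.51 ± 0.09), a carrier of H2A and H2B, and NASP (−0.39 ± 0.08), a carrier of H3 and H4. TONSL, which reads newly deposited H4 behind the fork, rose (0.53 ± 0.08).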

How the data were processed

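Raw read counts per gene and FPKM values were deposited by the authors in a table of 6 libraries; per the submitters' processing notes CASAVA, HISAT2 and build GRCh38 (hg38) were used, and no source used here gives the counter, its strand setting or any version. Per the file headers the table also holds the authors' group means, a normalised signal, their log2 fold changes and their adjusted p-values, none of which was used. Columns headed NC were taken as shControl, because it is the only group beside shAcsl4, and were matched to samples by number. The series text speaks of a knockout, the titles of hairpins and the characteristics of knockdown.

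Counts were scaled by TMM and tested with edgeR 4.0.16 (quasi-likelihood, filterByExpr, R 4.3.3), with Benjamini-Hochberg adjustment over all 15694 genes that passed; called means an adjusted p under 0.05. CPM values use TMM-scaled library sizes, so their precision is limited by counts of 3 to 422 per library for called genes. DESeq2 1.42.0, limma 3.58.1 (voom, and trend on log2 of the FPKM plus 1), other scalings, filters, a replicate block and leaving out each library were alternatives. The code was tested on simulated data. Stem-loops, transcript ends and shared 100-base stretches were read from GENCODE 29. Exon lengths came from the deposited annotation, overlaps from its gene bounds and from RefSeq, and promoters from RefSeq (GRCh38.p14). Members and gene lists were chosen with earlier results of these data known. Named are every called member, the 4 highest of each type, the largest rise and fall at a mean of at least 50 counts, and up to 5 called genes of each list with the smallest adjusted p, of which 1 is not reported here, with SLBP and NPAT in any case. Genes named beyond this rule, such as HIST1H2BG, HIST1H2BH, CD3E, VIM and the RNAs listed at 0, were chosen after their values were seen.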

Additional observations from a re-analysis of the deposited data

How the results depend on the processing

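Over 14 alternatives, 4 to 7 members were called lower. The 4 came with a filter at a mean of 50 counts, which tested 9 members, and the 7 with limma-trend on log2(FPKM + 1), which added HIST2H2BE (adjusted p = 0.0451). HIST1H2BK, HIST1H2BJ, HIST1H2BN, HIST1H4I and HIST1H1C were called lower under every alternative that tested them. Members called higher numbered 0 with DESeq2, with no filter beyond 1 count, with the filter at 50 counts and with the replicate block, and 0 to 1 when 1 library was left out, against 1 as reported. The HIST1H4H adjusted p was 0.127 with no filter and 0.0688 with the replicate block. No call changed direction. The log2 ratio of the summed level stayed below 0 for each histone type under the scalings and left-out libraries, from −1.28 to −1.05 for H2B, from −0.25 to −0.04 for H2A and from −0.20 to −0.02 for H3. Leaving out each library for the ratios within divergent pairs was chosen after seeing the data, and gave −1.92 to −0.95 for HIST1H2BC to HIST1H2AC and −2.39 to −1.63 for HIST1H2BJ to HIST1H2AG.

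Libraries with the same number did not deviate together (correlations 0.0623, −0.00128 and 0.00754), so the replicate block was not the reported fit; with it 6 members were called lower, and 3645 and 3769 of all genes were called lower and higher. Library size alone shifted the median log2 fold change of all genes to 0.13 and that of the tested members to −0.36. None of the 52 untested members had more than 14 reads in a library. With no filter beyond 1 count, 38 of them were tested by edgeR, with 0 calls and 0 at an unadjusted p under 0.05; at these counts small differences are not detectable.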
